A study of Schizosaccharomyces pombe with 21 samples.

Results

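Small nucleolar RNAs (snoRNAs), spliceosomal small nuclear RNAs (snRNAs) and the RNA subunits of RNase MRP and RNase P were followed through 21 poly(A)-selected RNA-seq libraries of the fission yeast Schizosaccharomyces pombe. The set was taken from the locus identifiers of both count tables: 53 loci with the SPSNORNA prefix, 7 with the SPSNRNA prefix, mrp1 (SPNCRNA.82) and rrk1 (SPNCRNA.128), that is 62 of the 6988 counted loci. It held 5 spliceosomal snRNA genes (U1, U2, U4, U5 and U6), 2 genes of the U3 snoRNA (snu3 and snu32), the RNase MRP RNA (mrp1), the RNase P RNA (rrk1), 20 box H/ACA snoRNAs and 33 other snoRNAs. Each group was h+ and came from 1 strain, asp1-WT excepted, sampled as 3 log-phase vegetative cultures per group at 30 °C. One experiment, in ePMGT medium, compared asp1-WT::hygMX with STF6 (asp1-W386*) and STF9 (asp1-W493*), nonsense alleles of the gene for the bifunctional kinase/pyrophosphatase Asp1 that leave the inositol-pyrophosphate kinase domain and remove the pyrophosphatase. The other, in YES medium, compared kcs1-WT::kanMX with the missense alleles kcs1-R332T, kcs1-L338R and kcs1-E834K of the IP6 kinase Kcs1. Each allele carried the same resistance marker as its own wild type. The labels give asp1-WT replicate 1 another strain number than replicates 2 and 3. Asp1 and Kcs1 make inositol pyrophosphates, signalling molecules known in fission yeast to promote 3′ processing and termination of RNA polymerase II transcripts.

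Box C/D snoRNAs guide 2′-O-methylation and box H/ACA snoRNAs guide pseudouridylation of ribosomal RNA, while U3, U14 and U17 (named snR30 here) act in the cleavage of the ribosomal RNA precursor. RNase MRP also cuts that precursor, RNase P matures the 5′ ends of transfer RNAs, and U1, U2, U4, U5 and U6 build the spliceosome. Most of these RNAs are made by RNA polymerase II, their mature forms carry no poly(A) tail, and polyadenylated forms are precursors, 3′-extended transcripts or molecules tagged for the nuclear exosome. In a poly(A)-selected library the counts are therefore of such forms and say nothing of the mature RNA, and in a bulk culture fewer cells with an RNA and less of it per cell cannot be told apart.

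The sequences below belong to RNAs on which the results turned, so that the annotated ends behind the counts can be seen. They were read from the RefSeq genome and annotation of build ASM294v3, to which all 62 loci matched by identifier. The count tables were made on build ASM294v2 and hold no coordinates, so chromosome and strand are given and positions are not. In the snRNAs, capitals mark the stretch of U1 that pairs with the 5′ splice site, the stretch of U2 that pairs with the intron branch site and the conserved loop of U5.
snu1 (U1, chromosome II, plus strand): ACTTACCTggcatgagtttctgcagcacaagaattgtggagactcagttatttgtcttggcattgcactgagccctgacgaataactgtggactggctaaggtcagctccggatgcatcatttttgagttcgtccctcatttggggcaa
snu2 (U2, chromosome I, minus strand): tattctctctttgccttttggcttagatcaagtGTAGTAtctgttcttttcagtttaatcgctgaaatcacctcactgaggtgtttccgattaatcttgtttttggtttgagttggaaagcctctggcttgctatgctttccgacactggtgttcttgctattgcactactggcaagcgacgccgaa
snu5 (U5, chromosome II, plus strand): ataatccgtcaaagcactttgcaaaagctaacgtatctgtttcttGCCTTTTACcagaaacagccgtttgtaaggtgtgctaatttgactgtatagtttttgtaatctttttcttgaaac

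Among the snoRNAs, 3 that turn up repeatedly below carry TGATGA, the core of the C box, near the 5′ end and CTGA, the D box, near the 3′ end, both in capitals. The last 120 bases of 2 box H/ACA snoRNAs are shown with the ACA that lies 3 bases before the 3′ end in capitals.
snoU14 (U14, chromosome II, plus strand): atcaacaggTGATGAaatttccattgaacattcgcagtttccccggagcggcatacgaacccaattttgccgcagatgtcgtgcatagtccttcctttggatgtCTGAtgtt
snoR38 (chromosome I, plus strand): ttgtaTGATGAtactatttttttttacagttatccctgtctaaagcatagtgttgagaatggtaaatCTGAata
snr79 (chromosome I, plus strand): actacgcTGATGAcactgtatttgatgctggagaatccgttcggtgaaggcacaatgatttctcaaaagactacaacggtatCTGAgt
snR30 (U17, chromosome I, plus strand): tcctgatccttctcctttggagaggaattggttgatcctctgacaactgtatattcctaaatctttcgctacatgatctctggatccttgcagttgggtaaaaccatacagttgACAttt
snR95 (chromosome II, minus strand): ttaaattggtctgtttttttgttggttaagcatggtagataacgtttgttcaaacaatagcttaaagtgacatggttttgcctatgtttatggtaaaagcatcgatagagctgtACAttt

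Searched on the RNA strand over the whole annotated span, TGATGA and CTGA occurred together in 18 of the 33 other snoRNAs and in 4 of the 20 box H/ACA snoRNAs, against 0.673% of the 85-base windows downstream of 6836 matched loci. The box H/ACA snoRNAs are longer than those windows, at 142 to 488 bases, so for them this is not a like comparison. ACA stood 3 bases before the annotated end in 10 of 20 box H/ACA snoRNAs and in 0 of 33 others, against 1.87% of those windows. The hexamer AATAAA, the canonical poly(A) signal, was found on the RNA strand within 200 bases downstream of 20 of 62 members (32.3%) and of 30.9% of all matched loci. The share behind these genes was thus close to that over all matched loci.

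The libraries held 20547260 to 35919903 counts in the asp1 experiment and 19515604 to 27776638 in the kcs1 experiment, and 98.5% to 99.2% of the counts were at coding loci. No pair of replicates agreed within sampling noise (chi-square per degree of freedom 3.28 or more). STF6 replicate 3 stood farthest from a replicate of its own group (86.3, against STF6 replicate 1). In asp1-WT, replicate 1, which has the other strain number, gave 49.1 against replicate 2 and 54.7 against replicate 3. Replicates 2 and 3 gave 24.5 against each other. The part of the strain in this spread was not tested. The counts of the mutated genes cannot check the labels, since each allele differs by a single codon: asp1 read 1808 normalised counts on average in asp1-WT, 2400 in the STF6 cultures and 1855 in those of STF9 (log2 0.41 ± 0.10, adjusted p = 0.00971 for STF6).

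Counts were scaled by TMM within each experiment (normalised counts below), each mutant was tested against its own wild type by edgeR's quasi-likelihood test, and p-values were adjusted by Benjamini-Hochberg over all tested loci. In fits that left out 1 library, that library belonged to one of the groups compared. Values after ± are standard errors (SE) unless marked SD. A locus was tested when at least 3 libraries held about 10 counts or more at the median depth. Of the 62 members, 45 were tested in the asp1 experiment and 33 in the kcs1 experiment, and all 33 were among the 45. In 12 of the 45 and 13 of the 33, some group was below that minimum in at least 1 library, so these RNAs could enter the test through the groups in which they were high. The same 11 members had no count in either experiment. Of those, 8 lie inside an exon of a longer counted locus on the same strand: snoZ3, snoZ4, snoZ5, snoZ7 and snoZ8 in the snoZ primary transcript, snoZ30 in SPNCRNA.1483, snoR68 in SPNCRNA.1650 and snR97 in SPNCRNA.617. The remaining 6 of the asp1 experiment and 18 of the kcs1 experiment were counted but too low to test.

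Summed over all members, the 3 asp1-WT libraries held 128, 136 and 146 CPM, that is deposited counts scaled to the total of their library. The STF6 libraries held 264, 289 and 360 and the STF9 libraries 259, 242 and 245, so every STF library was above every asp1-WT library. In the kcs1 experiment the sums were 104, 104 and 103 CPM for kcs1-WT, 126, 125 and 125 for kcs1-R332T, 127, 132 and 146 for kcs1-L338R, and 147, 153 and 145 for kcs1-E834K, again with no overlap between a mutant and its wild type. Other structured RNAs overlapped between the groups of the asp1 experiment. Transfer RNA loci summed to 4.73 to 6.62 CPM in asp1-WT and 4.54 to 6.98 across the STF libraries, ribosomal RNA loci to 11.3 to 15.3 and 9.92 to 38.1, and the signal recognition particle RNA srp7 to 1.20 to 1.93 and 0.886 to 13.3. STF9 replicate 2 held the highest ribosomal RNA and srp7 values and STF6 replicate 3 the highest transfer RNA sum. In the kcs1 experiment ribosomal RNA loci were higher in kcs1-R332T (28.6 to 31.8 CPM) than in kcs1-WT (22.6 to 25.9), and srp7 was higher in kcs1-L338R (3.62 to 3.75) than in kcs1-WT (2.20 to 3.28). Transfer RNA sums were lower in kcs1-L338R (1.18 to 1.24 CPM) than in kcs1-WT (1.30 to 1.39). All other annotated noncoding loci summed to more in kcs1-R332T (8683 to 9025 CPM) than in kcs1-WT (7914 to 8115), with overlap for kcs1-L338R and kcs1-E834K. Those loci summed to less in STF9 (11876 to 12787 CPM) than in asp1-WT (13288 to 14310), with overlap for STF6. The part of these RNAs in the results below was not tested.

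**Figure D1:**
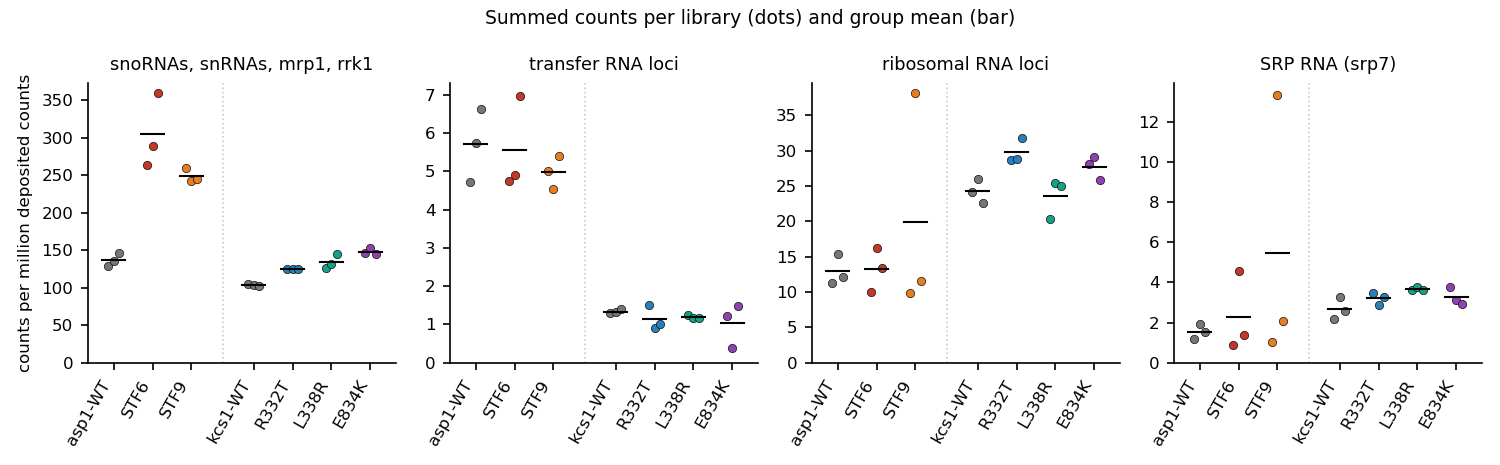
CPM of the deposited counts summed over the 62 snoRNA, snRNA and RNase MRP/P RNA loci, over transfer RNA loci, over ribosomal RNA loci and for srp7, by library (dots, 3 per group) with the group mean (bar). The 6 STF libraries sit at 242 to 360 in the first panel, above the asp1-WT libraries at 128 to 146, while the transfer RNA sums overlap.

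In STF6, 23 tested members rose and 0 fell against asp1-WT, where 16.6% of all 6144 tested loci were higher and 11.6% lower. In STF9, 20 rose and 1 fell, against a background of 18.2% higher and 15.1% lower. The rises covered both RNase RNAs, both U3 genes and 3 of the 4 tested spliceosomal snRNAs in each allele (all 4 are among the 12 RNAs below the minimum in some group), and among the box H/ACA snoRNAs 9 of 16 in STF6 and 7 of 16 in STF9. The other snoRNAs had 7 of 21 higher in STF6 and 6 of 21 in STF9. Of tested members over 100 bases, 17 of 27 rose in STF6 and 16 of 27 in STF9. For members of 100 bases or less these were 6 of 18 and 4 of 18. All box H/ACA snoRNAs are over 100 bases, and the parts of class and length were not tested. Over the tested members the median log2 fold change was 1.01 in STF6 and 0.92 in STF9, beside 0.06 and -0.03 over all tested loci. Among the 33 members above the minimum in every library of every group, 18 rose in STF6 and 16 in STF9, where 15.7% and 18.1% of all such loci did. At the stricter limits of a change of at least 2-fold and a mean of at least 100 normalised counts, 10 members were higher in STF6 and 8 in STF9, against 2.51% and 2.12% of all tested loci. For the count of 0 that fell in STF6, 1 of 45 members was lower at an unadjusted p under 0.05 by edgeR, where 960 of all 6144 tested loci were. DESeq2's Wald test also called 0 members lower, and the share of all loci it called is not given.

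Same-numbered cultures of STF6 and asp1-WT deviated together across loci. With the replicate number as a block in a fit of these 6 libraries alone, 32 members rose and 4 fell in STF6: snR33 (log2 -0.57, adjusted p = 0.00498), snR36 (-0.93, adjusted p = 0.0299), snR94 (-0.53, adjusted p = 0.0131) and snR101 (-0.28, adjusted p = 0.0109), by edgeR. Of all loci in that fit, 23.6% were higher and 24.5% lower. All 4 are box H/ACA snoRNAs. Among the 10 called higher in STF6 by this fit and not by the unblocked fit of all groups were snu4 (1.11, adjusted p = 0.0265), snR42 (0.62, adjusted p = 0.0411) and sno52 (0.33, adjusted p = 0.0362).

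**Figure D2:**
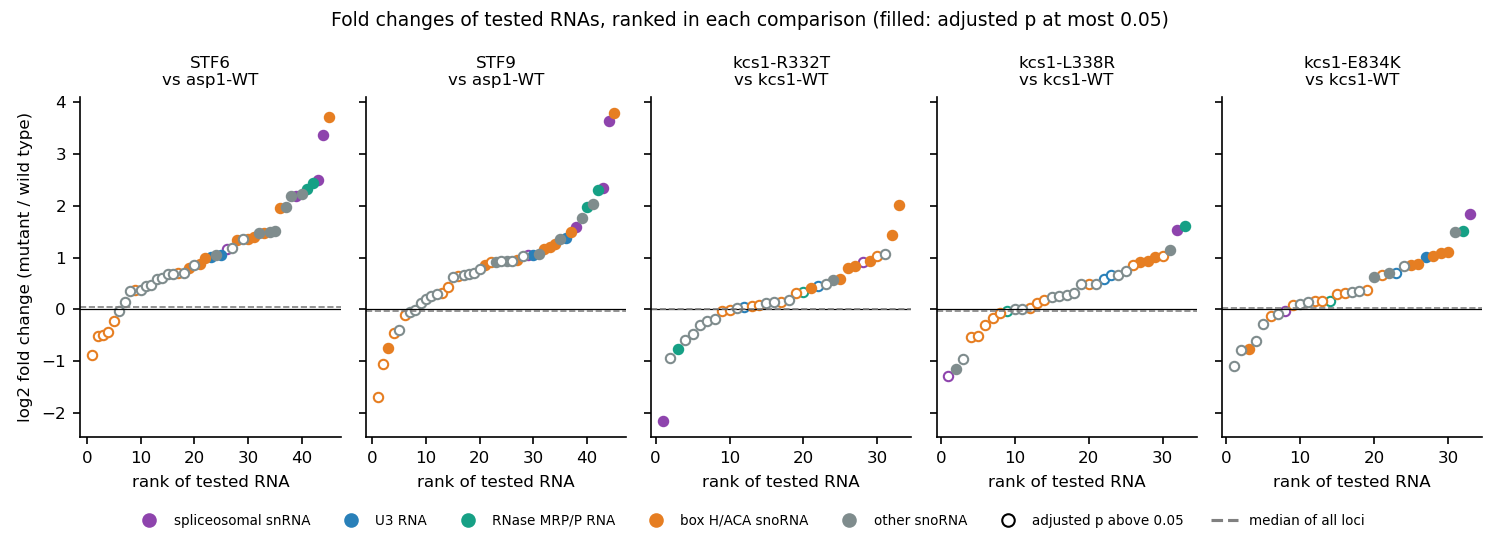
Log2 fold change of each tested RNA against its wild type, ranked within each of the 5 comparisons (45 RNAs for STF6 and STF9, 33 for the kcs1 alleles) and coloured by class, filled where the adjusted p was at most 0.05. The median of all loci (dashed) lies at 0.06 for STF6 and -0.03 for STF9, and the medians of the plotted RNAs at 1.01 and 0.92.

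Of the spliceosomal snRNAs, U2 changed most in both STF alleles. Its gene snu2, whose RNA binds the intron branch site, had 7.72, 9.66 and 10.04 normalised counts in the asp1-WT cultures, 116.2, 90.79 and 76.6 in those of STF6 and 122, 124 and 97.14 in those of STF9. All 6 STF cultures were far above all 3 wild-type cultures. The fitted log2 change was 3.36 ± 0.28 (SE, adjusted p = 2.2e-06) in STF6 and 3.64 ± 0.28 (SE, adjusted p = 1.1e-06) in STF9 by edgeR, and the call held in every fit that left out 1 library.

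U5 and U1 also rose in both STF alleles, from lower counts. The U5 gene snu5, whose loop contacts the exons, had 5.404, 5.796 and 8.215 normalised counts in asp1-WT, 43.45, 21.91 and 45.96 in the STF6 cultures and 31.25, 15.74 and 10.15 in those of STF9. No STF culture reached down to the wild type, although STF9 replicate 3 came near it. The log2 fold change of snu5 was 2.51 ± 0.48 (SE, adjusted p = 0.00168) in STF6 and 1.58 ± 0.51 (SE, adjusted p = 0.0295) in STF9, and the second fell short without any single asp1-WT culture (adjusted p 0.055 to 0.0812 by edgeR) and without STF9 replicate 1 (log2 1.03, adjusted p = 0.189). The U1 gene snu1, whose RNA pairs with the 5′ splice site, had 1.544, 2.898 and 2.738 normalised counts in asp1-WT, 15.21, 9.392 and 9.012 in the STF6 cultures and 8.065, 13.78 and 15.95 in those of STF9. This is 8 counts in the 3 wild-type libraries together against 33 in STF6 and 33 in STF9, a ratio per effective library size of 4.73 in STF6 (95% exact interval 2.14 to 11.9) and 5.24 in STF9 (2.37 to 13.1), where the intervals cover counting error only. By edgeR the log2 fold change of snu1 was 2.19 ± 0.56 (SE, adjusted p = 0.0105) in STF6 and 2.34 ± 0.56 (SE, adjusted p = 0.0066) in STF9.

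U4, which carries U6 into the spliceosome, did not pass the test in either STF allele. Its gene snu4 had 14.67, 6.762 and 5.477 normalised counts in asp1-WT, 13.03, 30.26 and 18.93 in the STF6 cultures and 24.19, 15.74 and 17.4 in those of STF9. The STF6 cultures overlapped asp1-WT through asp1-WT replicate 1, while the STF9 cultures lay just above it, and without that library snu4 passed in STF6 (log2 1.74, adjusted p = 0.0338) and in STF9 (1.63, adjusted p = 0.0363). The U6 gene snu6, transcribed by RNA polymerase III, was too low to test in either experiment.

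**Figure D3:**
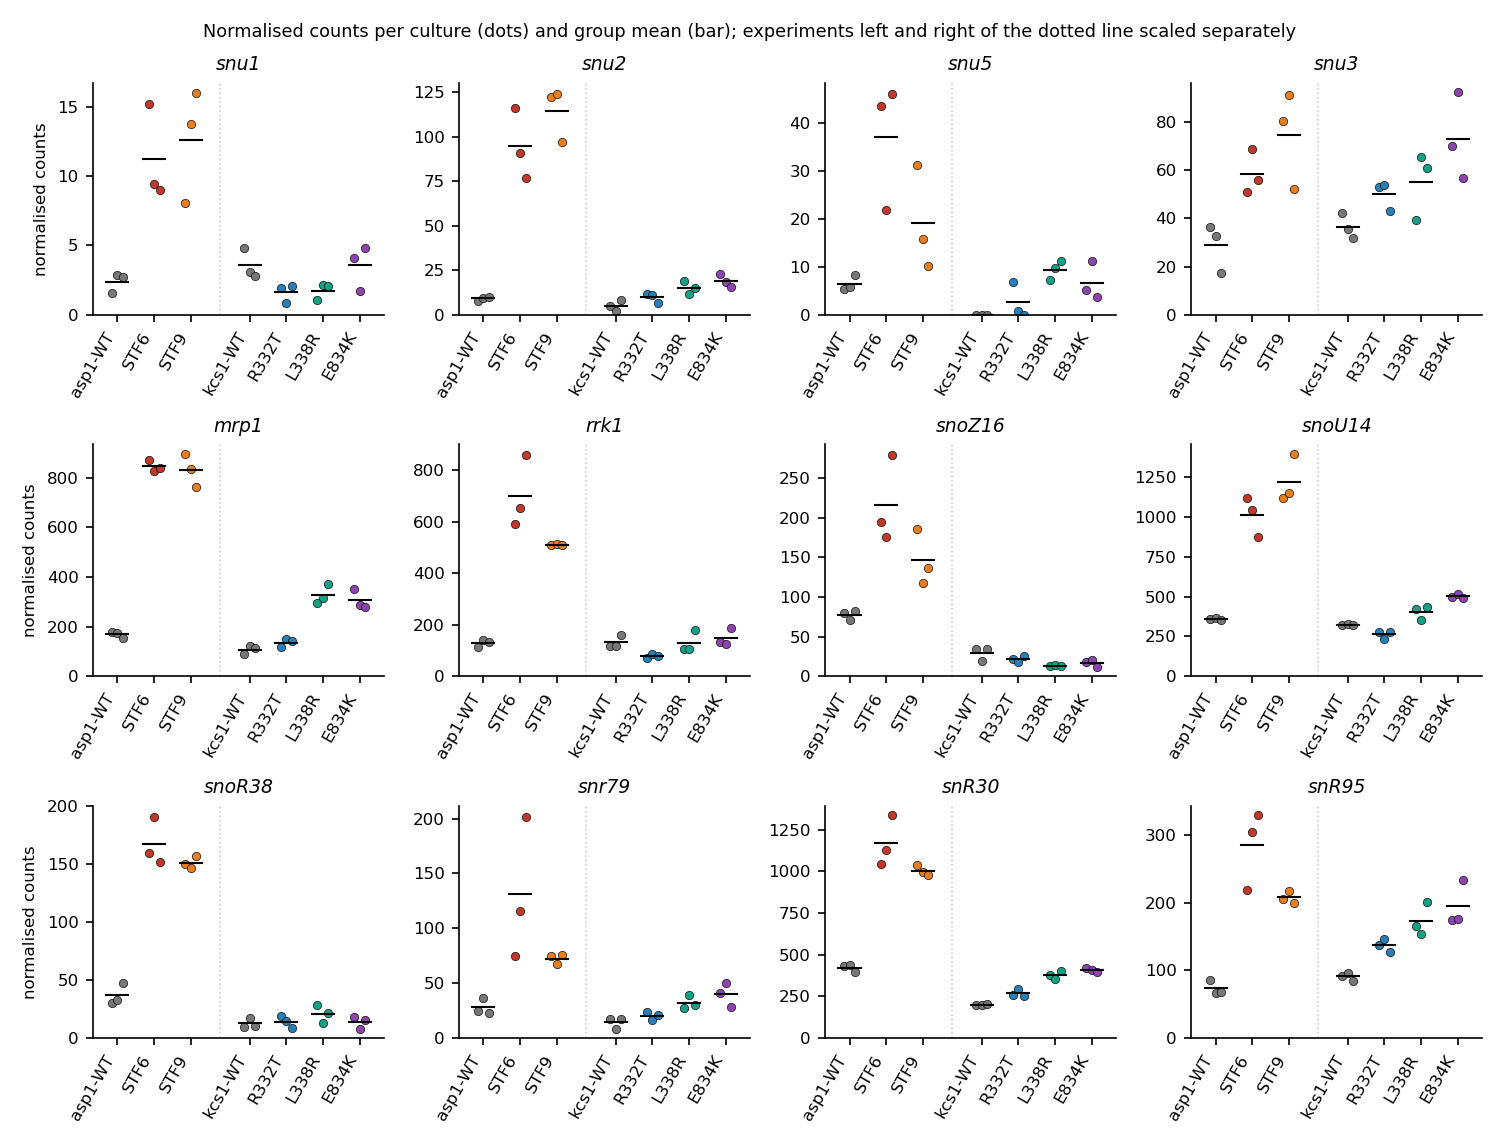
Normalised counts of snu1, snu2, snu5, snu3, mrp1, rrk1, snoZ16, snoU14, snoR38, snr79, snR30 and snR95 in the 3 cultures of each of the 7 groups (dots) with the group mean (bar), each RNA on its own axis. The experiments were scaled separately. For mrp1 the STF cultures lie at 761 to 894 and the asp1-WT cultures at 155 to 177.

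Both U3 genes rose in both STF alleles. U3 guides the early cleavages of the ribosomal RNA precursor, and snu3 had 36.28, 32.84 and 17.34 normalised counts in asp1-WT, 51.05, 68.87 and 55.88 in the STF6 cultures and 80.65, 91.51 and 52.2 in those of STF9. Every STF culture was above every wild-type culture. The log2 fold change of snu3 was 1.01 ± 0.31 (SE, adjusted p = 0.028) in STF6 and 1.38 ± 0.31 (SE, adjusted p = 0.00491) in STF9, and the STF6 call was lost without asp1-WT replicate 2 (adjusted p = 0.0525), asp1-WT replicate 3 (log2 0.71, adjusted p = 0.122) or STF6 replicate 2 (adjusted p = 0.112). The second gene, snu32, had 36.28, 45.4 and 41.99 normalised counts in asp1-WT, 79.29, 120 and 57.68 in the STF6 cultures and 97.79, 85.6 and 72.49 in those of STF9, with every STF culture above every wild-type culture. Its log2 fold change was 1.05 ± 0.28 (SE, adjusted p = 0.0129) in STF6 and 1.06 ± 0.28 (SE, adjusted p = 0.0118) in STF9. The STF6 call was lost without asp1-WT replicate 1 (adjusted p = 0.0548) or STF6 replicate 2 (adjusted p = 0.0916) and the STF9 call without STF9 replicate 1 (adjusted p = 0.0551). The genes are 87.1% identical over a local alignment of 132 bases, but each of the 206 51-base windows of snu3 occurs once in the genome. Of the 205 such windows of snu32, 165 do.

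The RNase RNAs were among the clearest rises, and mrp1 had the smallest adjusted p-value of all members in each STF allele. The RNase MRP RNA mrp1 had 176.8, 174.8 and 155.2 normalised counts in asp1-WT, 872.2, 828.5 and 838.1 in the STF6 cultures and 894.2, 836.4 and 761.2 in those of STF9. The cultures of each group lay close together and the STF cultures lay far above the wild type. This was a log2 fold change of 2.32 ± 0.12 (SE, adjusted p = 3.5e-08) in STF6 and 2.30 ± 0.12 (SE, adjusted p = 4e-08) in STF9. The RNase P RNA rrk1 had 114.2, 141 and 132.4 normalised counts in asp1-WT, 590.9, 653.2 and 860.7 in the STF6 cultures and 508.1, 514.6 and 510.4 in those of STF9, with log2 fold changes of 2.44 ± 0.16 (SE, adjusted p = 2.6e-07) and 1.99 ± 0.16 (SE, adjusted p = 1.7e-06). Both RNAs passed in every fit that left out 1 library. rrk1 overlaps an exon of pre10 on the other strand, whose counts changed by 0.22 ± 0.10 (SE, adjusted p = 0.128) in STF6 and 0.36 ± 0.10 (SE, adjusted p = 0.0166) in STF9.

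The snoRNA gene snoZ16 begins 113 bases downstream of mrp1 on the same strand of chromosome I. The end of mrp1, the spacer and snoZ16 are shown together, since both RNAs that flank the spacer rose in the STF alleles, with snoZ16 in capitals and the last 100 bases of mrp1 first.
mrp1 to snoZ16 (chromosome I, plus strand): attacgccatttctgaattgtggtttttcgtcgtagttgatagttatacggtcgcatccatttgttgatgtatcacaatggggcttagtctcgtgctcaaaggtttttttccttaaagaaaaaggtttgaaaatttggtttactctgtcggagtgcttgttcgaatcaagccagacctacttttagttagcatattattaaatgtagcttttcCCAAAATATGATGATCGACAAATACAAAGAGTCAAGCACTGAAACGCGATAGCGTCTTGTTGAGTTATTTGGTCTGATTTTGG

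snoZ16 had 79.51, 71.49 and 82.15 normalised counts in asp1-WT, 194.4, 176.4 and 279.4 in the STF6 cultures and 186.5, 118.1 and 136.3 in those of STF9. All STF cultures were above the wild type. The log2 fold change was 1.48 ± 0.23 (SE, adjusted p = 0.00035) in STF6 and 0.92 ± 0.23 (SE, adjusted p = 0.00859) in STF9, and the STF9 call was lost without STF9 replicate 1 (log2 0.70, adjusted p = 0.0545). In kcs1-L338R, described below, mrp1 rose and snoZ16 fell.

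Among the box H/ACA snoRNAs, snR30 (U17), snR90, snR95, snR96, snR3 and sno20 rose in both STF alleles. snR30, needed for cleavage of the ribosomal RNA precursor, had 431.5, 434.7 and 393.4 normalised counts in asp1-WT, 1047, 1131 and 1337 in the STF6 cultures and 1037, 993.8 and 981.6 in those of STF9, which is more than any wild-type culture in all 6 STF cultures. Its log2 fold change was 1.48 ± 0.12 (SE, adjusted p = 1.6e-06) in STF6 and 1.26 ± 0.12 (SE, adjusted p = 7.3e-06) in STF9. snR90 had 334.3, 332.3 and 312.2 normalised counts in asp1-WT, 863.5, 807.7 and 799.4 in the STF6 cultures and 755.1, 774.4 and 732.2 in those of STF9 and changed by 1.34 ± 0.11 (SE, adjusted p = 1.9e-06) and 1.21 ± 0.11 (SE, adjusted p = 4.8e-06) on the log2 scale. Its gene overlaps an exon of not3 on the other strand, whose own counts changed by 0.13 ± 0.13 (SE, adjusted p = 0.509) in STF6 and -0.22 ± 0.13 (SE, adjusted p = 0.205) in STF9.

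snR95 had 84.92, 66.66 and 67.55 normalised counts in asp1-WT, 219.4, 304.7 and 329.8 in the STF6 cultures and 205.7, 217.5 and 200.1 in those of STF9, with no overlap between STF and wild type. On the log2 scale the change was 1.96 ± 0.19 (SE, adjusted p = 8.4e-06) in STF6 and 1.503 ± 0.19 (SE, adjusted p = 8.3e-05) in STF9. snR96 gave the largest fitted change of all members, with 4 counts over the 3 asp1-WT libraries against 50 in STF6 and 49 in STF9, a ratio of 14.3 (95% exact interval 5.26 to 54.6) and 15.6 (5.70 to 59.4). It is among the 12 RNAs below the minimum in some group. The asp1-WT libraries were below that minimum, so snR96 entered the test through the STF libraries, in which it was high. The cultures held 0.772, 0.966 and 1.826 normalised counts in asp1-WT, 13.03, 21.91 and 15.32 in STF6 and 22.18, 18.7 and 11.6 in STF9. By edgeR its log2 fold change was 3.71 ± 0.58 (SE, adjusted p = 0.00041) and 3.80 ± 0.58 (SE, adjusted p = 0.00033). snR96 overlaps an exon of tim17 on the other strand, whose counts changed by 0.01 ± 0.10 (SE, adjusted p = 0.942) in STF6 and 0.28 ± 0.10 (SE, adjusted p = 0.0431) in STF9.

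snR3 changed by 1.41 ± 0.34 (SE, adjusted p = 0.00774) in STF6 and 1.16 ± 0.34 (SE, adjusted p = 0.0207) in STF9, and the STF9 call was lost without asp1-WT replicate 2 (adjusted p = 0.0666), asp1-WT replicate 3 (adjusted p = 0.0876) or STF9 replicate 1 (adjusted p = 0.103). sno20 changed by 0.80 ± 0.24 (SE, adjusted p = 0.0232) and 0.96 ± 0.24 (SE, adjusted p = 0.00809). Other box H/ACA snoRNAs did not follow. snR101 had 592.1, 531.3 and 555.9 normalised counts in asp1-WT, 479, 538.5 and 420.0 in the STF6 cultures and 552.4, 503.8 and 513.3 in those of STF9, with overlap between the groups (log2 -0.23 ± 0.13, adjusted p = 0.208 in STF6 and -0.10 ± 0.13, adjusted p = 0.571 in STF9). snR33 was the 1 member that fell in STF9, from 114.2, 122.7 and 133.3 in asp1-WT to 58.47, 65.93 and 98.59, with 78.2, 74.09 and 107.2 in STF6. The STF9 and wild-type cultures did not overlap. The fitted log2 change was -0.75 ± 0.24 (SE, adjusted p = 0.0301) in STF9 and -0.51 ± 0.23 (SE, adjusted p = 0.128) in STF6, and the STF9 call was lost without asp1-WT replicate 2 or 3 or STF9 replicate 1 or 2 (log2 -0.60 to -0.75, adjusted p 0.0694 to 0.127 by edgeR). The rise of sno12 in STF6 (53.22, 84.52 and 214.5 normalised counts against 57.9, 35.74 and 42.9, log2 1.37 ± 0.43, adjusted p = 0.0292) was lost without STF6 replicate 3 (log2 0.54, adjusted p = 0.209), asp1-WT replicate 2 (adjusted p = 0.101) or asp1-WT replicate 3 (adjusted p = 0.0865).

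Of the other snoRNAs, snoU14, snoR38, snr79 and snoZ16 rose in both STF alleles. snoU14, which takes part in cleaving the ribosomal RNA precursor, had 360.5, 368.1 and 353.3 normalised counts in asp1-WT, 1119, 1047 and 878.7 in the STF6 cultures and 1122, 1152 and 1399 in those of STF9, well apart. The log2 fold change was 1.49 ± 0.13 (SE, adjusted p = 3.3e-06) in STF6 and 1.76 ± 0.13 (SE, adjusted p = 8.2e-07) in STF9. snr79 had 24.7, 36.71 and 22.82 normalised counts in asp1-WT, 74.94, 115.8 and 201.9 in the STF6 cultures and 74.6, 66.91 and 75.39 in those of STF9 and changed by 2.23 ± 0.34 (SE, adjusted p = 0.00035) and 1.37 ± 0.35 (SE, adjusted p = 0.01). STF6 replicate 3 was its highest culture, and the STF9 call was lost without asp1-WT replicate 3 (log2 1.19, adjusted p = 0.0513). snr79 lies wholly within an exon of gpi12 on the other strand, and gpi12 itself changed by -0.09 ± 0.16 (SE, adjusted p = 0.698) in STF6 and -0.39 ± 0.16 (SE, adjusted p = 0.077) in STF9.

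Of the 10 members inside introns of a counted gene on the same strand, 8 were tested. Of these, 1 (12.5%) rose in STF6 and 3 (37.5%) in STF9, where 16.6% and 18.2% of all tested loci did. snoR38 stood out among them with 30.11, 32.84 and 47.47 normalised counts in asp1-WT, 159.7, 191 and 151.4 in the STF6 cultures and 150.2, 146.6 and 156.6 in those of STF9. By edgeR the log2 change was 2.18 ± 0.22 (SE, adjusted p = 9.7e-06) in STF6 and 2.04 ± 0.22 (SE, adjusted p = 1.9e-05) in STF9, while the exons of its host SPAC29A4.02c, a translation elongation factor EF-1 gamma gene, changed by 0.39 ± 0.13 (SE, adjusted p = 0.0422) and 0.61 ± 0.13 (SE, adjusted p = 0.00415). snoR58 rose in STF9 (1.07 ± 0.31, adjusted p = 0.0188) beside its host ade4 (0.15 ± 0.11, adjusted p = 0.335), and snoZ15 rose in STF9 (0.94 ± 0.24, adjusted p = 0.0101) beside its host pfd1 (-0.30 ± 0.20, adjusted p = 0.25). The difference between a snoRNA and its host was not tested. The other 5 changed by -0.02 to 0.70 on the log2 scale in the STF alleles, without passing in the unblocked edgeR fit. In the blocked fit of STF6 and asp1-WT, 4 of the 8 were higher in STF6, where 23.6% of all loci in that fit were. Added to snoR38 were snoU24b (log2 0.54, adjusted p = 0.0486), snoR39b (0.65, adjusted p = 0.0132) and snoZ15 (0.63, adjusted p = 0.0312).

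**Figure D4:**
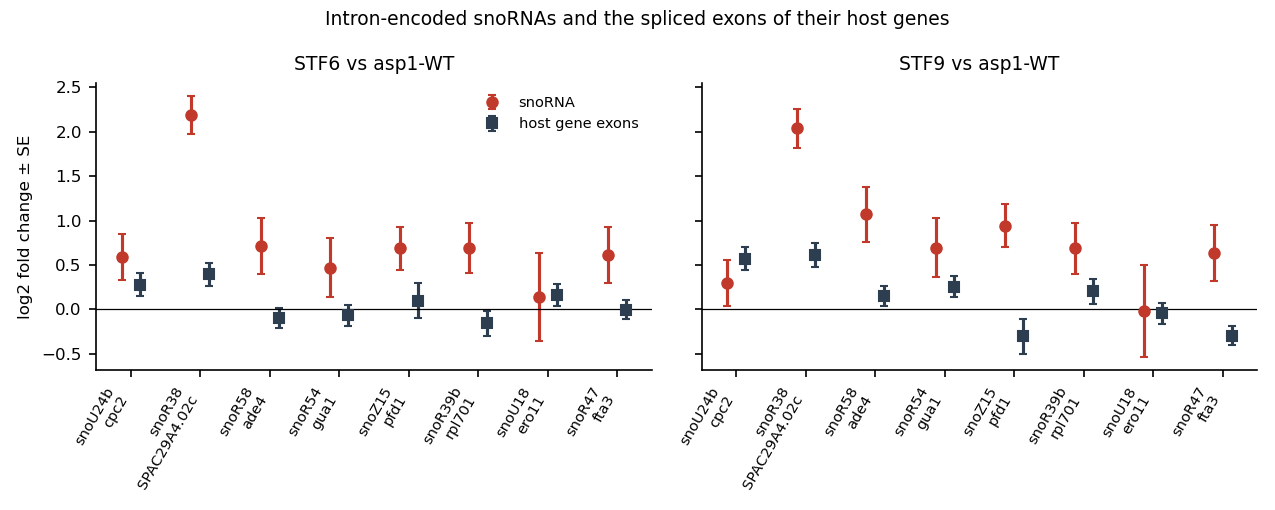
Log2 fold change (± SE) of each tested intron snoRNA and of the exons of its host gene in STF6 and STF9 against asp1-WT. snoR38 lies at 2.18 and 2.04 and its host SPAC29A4.02c at 0.39 and 0.61.

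The 8 members without counts inside longer noncoding loci could be followed only through those loci. SPNCRNA.617, which holds snR97, rose in STF6 (0.97 ± 0.21, adjusted p = 0.00403) and not significantly in STF9 (0.54 ± 0.21, adjusted p = 0.064). The snoZ transcript, which holds the snoZ cluster of 5 members, changed by 0.65 ± 0.32 (SE, adjusted p = 0.151) in STF6 and 0.53 ± 0.33 (SE, adjusted p = 0.225) in STF9. SPNCRNA.1483 changed by -0.28 in STF6 and -0.38 in STF9, and SPNCRNA.1650, which holds snoR68, by -0.07 and -0.38, without passing. SPNCRNA.1483, which holds snoZ30, rose in all 3 kcs1 alleles, with log2 fold changes of 0.48 ± 0.10 (SE, adjusted p = 0.00199) for R332T, 0.40 ± 0.10 (SE, adjusted p = 0.00956) for L338R and 0.45 ± 0.10 (SE, adjusted p = 0.00398) for E834K. In the same alleles and order, snoZ changed by -0.06, -0.53 and -0.55 without passing. SPNCRNA.617 changed by 0.05, 0.32 and 0.39 and SPNCRNA.1650 by 0.38, 0.31 and 0.54, also without passing.

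STF9 and STF6 were also compared with each other. Of the 45 members, 0 were higher and 0 lower in STF9, where 0.0814% of all tested loci were higher and 0% lower. At an unadjusted p under 0.05, 7 members were lower and 0 higher in STF9, where 15.4% and 6.98% of all tested loci were, and DESeq2 called 0 in either direction. Without STF6 replicate 1, 6 members were lower in STF9 and 1 higher. The share of all loci called in that fit is not given, so these counts cannot be set against it.

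In the kcs1 experiment fewer members changed and by less. Against kcs1-WT, 8 of 33 rose and 2 fell in kcs1-R332T, where 14.3% of 6093 tested loci were higher and 19.8% lower. In kcs1-L338R 6 rose and 1 fell, against 10.9% higher and 11.5% lower of all loci. In kcs1-E834K 11 rose and 1 fell, against 12.4% and 15.4%. The median log2 fold change of the members was 0.14, 0.27 and 0.33 in these alleles, beside 0.01, -0.04 and 0.02 over all tested loci and 0.20, 0.13 and 0.28 over the other annotated noncoding loci. Among the 20 members above the minimum in every library of every group, 7 rose in kcs1-R332T, 4 in L338R and 8 in E834K, where 14.5%, 11.0% and 12.1% of all such loci did. Without kcs1-L338R replicate 2, 10 members rose in that allele, where the share of all loci in that fit is not given. snR30, snR95 and sno12 rose in all 3 alleles, each tested against the same kcs1-WT libraries.

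snR30 had 199.6, 196.1 and 200.7 normalised counts in kcs1-WT, 255.2, 290.7 and 252.7 with the R332T allele, 376.1, 354.5 and 401.1 with L338R and 418.5, 404.8 and 394.8 with E834K. No mutant culture overlapped the wild type, and kcs1-R332T lay between the wild type and the other alleles. On the log2 scale the change was 0.42 ± 0.11 (SE, adjusted p = 0.00777), 0.92 ± 0.11 (SE, adjusted p = 3e-05) and 1.03 ± 0.10 (SE, adjusted p = 1.2e-05) in that order. snR95 had 91.59, 96.51 and 83.85 normalised counts in kcs1-WT, 137.2, 146.6 and 126.4 with the R332T allele, 165.2, 153.6 and 201.5 with L338R and 174.8, 175.6 and 233 with E834K, and its log2 fold changes were 0.60 ± 0.16 (SE, adjusted p = 0.0115), 0.94 ± 0.16 (SE, adjusted p = 0.00085) and 1.10 ± 0.16 (SE, adjusted p = 0.00024). For sno12 they were 0.94 ± 0.22 (SE, adjusted p = 0.00453), 1.02 ± 0.22 (SE, adjusted p = 0.00382) and 0.86 ± 0.22 (SE, adjusted p = 0.00916).

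mrp1 separated the kcs1 alleles. It had 87.73, 121.9 and 112.1 normalised counts in kcs1-WT, 116.9, 149.3 and 140.1 with the R332T allele, 296.1, 313.7 and 370.5 with L338R and 350.7, 288.1 and 280.1 with E834K. kcs1-R332T overlapped the wild type, while kcs1-L338R and kcs1-E834K were above both. The log2 fold change was 0.34 ± 0.16 (SE, adjusted p = 0.121) for R332T, 1.61 ± 0.16 (SE, adjusted p = 8.3e-06) for L338R and 1.51 ± 0.16 (SE, adjusted p = 1.6e-05) for E834K. The neighbour snoZ16 had 34.71, 19.3 and 33.92 in kcs1-WT, 21.26, 17.46 and 25.27 with the R332T allele, 12.47, 13.96 and 13.23 with L338R and 17.48, 20.76 and 12.07 with E834K and fell in kcs1-L338R (-1.15 ± 0.31, adjusted p = 0.018). That call was lost without kcs1-WT replicate 1 (adjusted p = 0.0742), kcs1-WT replicate 3 (adjusted p = 0.0654) or kcs1-L338R replicate 3 (adjusted p = 0.0553).

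rrk1 behaved otherwise. It had 118.6, 116.8 and 161.1 normalised counts in kcs1-WT, 71.52, 86.42 and 76.88 with the R332T allele, 107, 104.2 and 178.1 with L338R and 134.7, 126.3 and 187.1 with E834K. Only the kcs1-R332T cultures lay wholly below the wild type. Its log2 fold change was -0.75 ± 0.23 (SE, adjusted p = 0.022) for R332T, -0.03 ± 0.22 (SE, adjusted p = 0.952) for L338R and 0.17 ± 0.22 (SE, adjusted p = 0.605) for E834K. The kcs1-R332T call was lost without kcs1-WT replicate 3 (log2 -0.58, adjusted p = 0.0946), kcs1-R332T replicate 1 (adjusted p = 0.0768) or kcs1-R332T replicate 3 (adjusted p = 0.0645).

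Of the spliceosomal snRNAs, snu2 and snu4 were tested, and both are among the 13 RNAs below the minimum in some group. snu2 was higher in kcs1-L338R and kcs1-E834K. It had 4.82, 2.032 and 8.479 normalised counts in kcs1-WT, 11.6, 11.35 and 6.319 with the R332T allele, 18.7, 11.82 and 15.27 with L338R and 22.62, 18.17 and 15.7 with E834K. The kcs1-L338R and kcs1-E834K cultures were all above the wild type. This was a log2 fold change of 0.91 ± 0.48 (SE, adjusted p = 0.151), 1.54 ± 0.45 (SE, adjusted p = 0.0253) and 1.84 ± 0.43 (SE, adjusted p = 0.00623), and the kcs1-L338R call was lost without kcs1-WT replicate 1 or 2 or kcs1-L338R replicate 1 or 3 (log2 1.18 to 1.54, adjusted p 0.0637 to 0.0964 by edgeR). snu5 had no count in the 3 kcs1-WT libraries, 27 over kcs1-L338R and 21 over kcs1-E834K. Per effective library size these are 9.65-fold and 7.30-fold a chosen floor of 3 counts over kcs1-WT, counting error left out. It was too low to test in the fit reported here. With no filter on low counts snu5 passed in kcs1-L338R (adjusted p = 0.00889) and kcs1-E834K (adjusted p = 0.0145, edgeR). It did not pass in kcs1-R332T (log2 4.43 ± 1.88, adjusted p = 0.0895). In that fit neither kcs1-L338R (adjusted p = 0.0892) nor kcs1-E834K (adjusted p = 0.3) differed from kcs1-R332T in snu5 by edgeR. snu4 fell in kcs1-R332T, from 32 counts over the 3 kcs1-WT libraries to 7 (ratio 0.215, 95% exact interval 0.0803 to 0.497, counting error only), with a log2 fold change of -2.16 ± 0.65 (SE, adjusted p = 0.0211). kcs1-WT replicate 2 held most of the wild-type signal (3.856, 18.29 and 9.421 normalised counts), and the call was lost without it (log2 -1.53, adjusted p = 0.108) or without kcs1-R332T replicate 2 (adjusted p = 0.0741) or 3 (adjusted p = 0.0734). Of the U3 genes, snu3 rose in kcs1-E834K (1.01 ± 0.24, adjusted p = 0.00658) and not significantly in kcs1-L338R (0.59 ± 0.25, adjusted p = 0.103).

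In kcs1-R332T the box H/ACA snoRNAs held 7 of the 8 rises, with 7 of 14 tested. snR98 had 12.53, 5.079 and 8.479 normalised counts in kcs1-WT and 36.73, 42.77 and 26.33 in kcs1-R332T, snR36 17.35, 17.27 and 10.36 and 46.39, 41.03 and 33.7, and snR33 63.63, 43.68 and 53.7 and 96.65, 94.27 and 90.57. In each of the 3 the kcs1-R332T cultures were all above the wild type. Of the 3, snR98 is among the 13 RNAs below the minimum in some group, so it could enter the test through kcs1-R332T. The log2 fold changes were 2.01 ± 0.36 (SE, adjusted p = 0.00084) for snR98, 1.43 ± 0.29 (SE, adjusted p = 0.002) for snR36 and 0.80 ± 0.23 (SE, adjusted p = 0.0149) for snR33, which was lost without kcs1-WT replicate 2 (adjusted p = 0.0608). snR36 overlaps an exon of psd1 on the other strand, which changed by -0.44 ± 0.07 (SE, adjusted p = 0.00025). snR94 also rose (0.84 ± 0.26, adjusted p = 0.0247), a call lost without kcs1-WT replicate 1 (adjusted p = 0.0542) or 2 (adjusted p = 0.0857) or kcs1-R332T replicate 1 (adjusted p = 0.116).

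snoU14 had 319.1, 330.2 and 325 normalised counts in kcs1-WT, 278.4, 233.1 and 280.1 with the R332T allele, 419.7, 356.6 and 432.6 with L338R and 500.8, 514.7 and 493.8 with E834K. The kcs1-R332T cultures were all below the wild type and the other alleles all above it. By edgeR the log2 change was -0.30 ± 0.11 (SE, adjusted p = 0.0502), 0.31 ± 0.11 (SE, adjusted p = 0.0565) and 0.63 ± 0.11 (SE, adjusted p = 0.00089), of which the last passed. snr79 rose in kcs1-L338R (1.15 ± 0.33, adjusted p = 0.0225) and kcs1-E834K (1.49 ± 0.32, adjusted p = 0.00335), and the first was lost without kcs1-WT replicate 2 (adjusted p = 0.0914) or kcs1-L338R replicate 2 (adjusted p = 0.0627). Both snr79 and snR3, given below, are among the 13 RNAs below the minimum in some group. sno52 rose in kcs1-R332T (0.57 ± 0.18, adjusted p = 0.0273) and kcs1-E834K (0.70 ± 0.18, adjusted p = 0.0114). The first was lost without kcs1-WT replicate 1 or 2 or kcs1-R332T replicate 1 or 3 (adjusted p 0.0604 to 0.107, edgeR) and the second without kcs1-WT replicate 2 (adjusted p = 0.0536) or kcs1-E834K replicate 2 (adjusted p = 0.06). snR42 rose in STF9 (0.85 ± 0.28, adjusted p = 0.0346) and fell in kcs1-E834K (-0.77 ± 0.26, adjusted p = 0.0364), and each call was lost in at least 5 of the 6 fits that left out 1 library (adjusted p 0.0597 to 0.142 by edgeR where lost). The small rise of snR3 in kcs1-E834K (1.10 ± 0.39, adjusted p = 0.0495) was lost in 4 of those fits and the rise of snR36 in that allele (0.87 ± 0.31, adjusted p = 0.0476) in 5.

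The kcs1 alleles were then tested against each other. In kcs1-L338R against kcs1-R332T 4 members were higher and 4 lower, where 19% of all tested loci were higher and 17.6% lower. In kcs1-E834K against kcs1-R332T 7 were higher and 2 lower, against 9.88% and 4.05%, and 3 to 4 were higher and 0 to 1 lower when 1 library of either allele was left out. In kcs1-E834K against kcs1-L338R 0 were higher and 0 lower, as 0% of all loci were in each direction, with 3 members higher and 0 lower at an unadjusted p under 0.05 (6.68% and 7.98% of all loci) and 0 members by DESeq2. mrp1 was higher than in kcs1-R332T in both other alleles, by 1.27 ± 0.16 (SE, adjusted p = 5.6e-05) in kcs1-L338R and 1.18 ± 0.16 (SE, adjusted p = 0.00018) in kcs1-E834K on the log2 scale. rrk1 was also higher (0.73 ± 0.23, adjusted p = 0.0265 and 0.92 ± 0.23, adjusted p = 0.0163), as was snoU14 (0.61 ± 0.11, adjusted p = 0.0012 and 0.93 ± 0.11, adjusted p = 6.7e-05). snR98 was lower than in kcs1-R332T in both (-0.97 ± 0.32, adjusted p = 0.0312 and -1.35 ± 0.33, adjusted p = 0.0157), and snR33 was lower in kcs1-L338R (-1.31 ± 0.24, adjusted p = 0.00128).

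**Figure D5:**
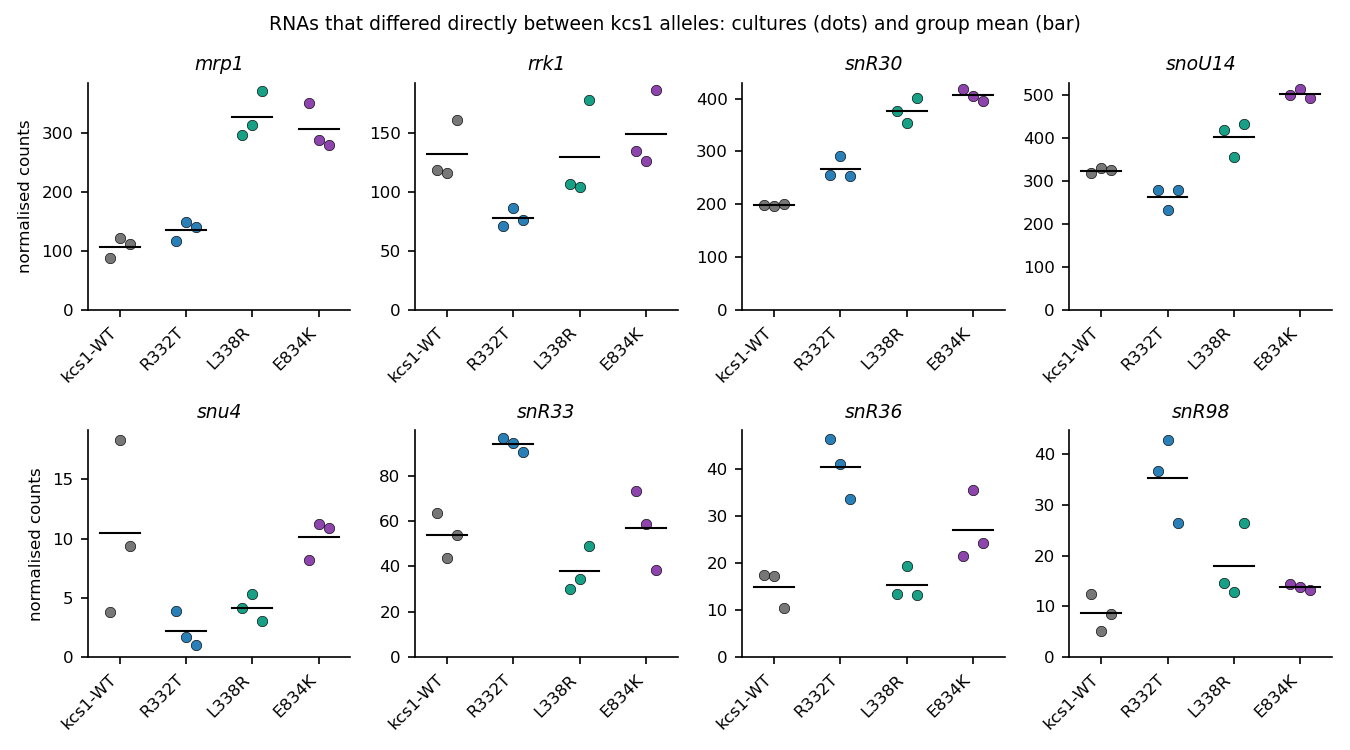
Normalised counts of mrp1, rrk1, snR30, snoU14, snu4, snR33, snR36 and snR98 in the 3 cultures of each kcs1 group (dots) with the group mean (bar). mrp1 lies at 117 to 149 in kcs1-R332T and at 280 to 371 in kcs1-L338R and kcs1-E834K, while snR98 is at 26.3 to 42.8 in kcs1-R332T and at 12.9 to 26.5 in the other 2 alleles.

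As RPKM, the CPM of deposited counts per kilobase of annotated length, snoU14 was the highest member in every group except kcs1-R332T, where snR101 was at 103.3 ± 1.427 RPKM (SD, n = 3). The level of snoU14 was 125.2 ± 7.945 RPKM (SD, n = 3) for asp1-WT, 343.1 ± 13.32 for STF6 and 370.1 ± 42.64 for STF9, and 119.7 ± 3.895 for kcs1-WT, 102.6 ± 8.56 for R332T, 145.9 ± 10.67 for L338R and 186.5 ± 5.045 for E834K. In kcs1-R332T these levels did not differ beyond their spread. The second member was snR101 in asp1-WT (79.61 ± 4.308 RPKM) and snR30 in STF6 (138.1 ± 29.95) and STF9 (104.4 ± 4.514).

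Genes for the proteins that process these RNAs are given beside the shares of all loci printed above. Of 13 nuclear exosome genes, 1 rose and 0 fell in STF6, 2 rose and 3 fell in STF9 (all loci 18.2% and 15.1%), and 1 rose and 2 fell in kcs1-R332T, with 0 up and 1 down in each of kcs1-L338R and kcs1-E834K. The fall in all 3 kcs1 alleles was in dis3, a catalytic subunit (-0.45 ± 0.08, adjusted p = 0.00066 in kcs1-R332T). Of 13 genes for TRAMP, MTREC and nuclear poly(A) factors, 2 rose and 0 fell in STF6 and 2 rose and 3 fell in STF9, among them cid14, a poly(A) polymerase that tags RNAs for the exosome (-0.61 ± 0.14, adjusted p = 0.00482). In that list kcs1-R332T had 2 up and 2 down, and kcs1-L338R and kcs1-E834K each had 0 up and 1 down.

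Of 15 genes for 3′-end formation and termination, 4 fell and 1 rose in each STF allele. pcf11, a cleavage and termination factor, changed by -0.71 ± 0.08 (SE, adjusted p = 1.8e-05) in STF6 and -0.71 ± 0.08 (SE, adjusted p = 2e-05) in STF9, and the helicase gene sen1 by -0.60 ± 0.08 (SE, adjusted p = 0.00013) and -0.52 ± 0.08 (SE, adjusted p = 0.00038). swd22, a subunit of the cleavage and polyadenylation factor, rose in both (0.51 ± 0.09, adjusted p = 0.00143 and 0.58 ± 0.09, adjusted p = 0.00055). Of these genes 6 fell in kcs1-R332T, 3 in L338R and 7 in E834K, where 19.8%, 11.5% and 15.4% of all loci did, and 0 rose in any of them, with seb1, a termination factor, lower in each (-0.39 ± 0.06, adjusted p = 0.00013, -0.27 ± 0.06, adjusted p = 0.00314 and -0.32 ± 0.06, adjusted p = 0.00083).

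The protein partners were mixed. Of 4 box C/D proteins, fib1, the methyltransferase fibrillarin, rose in STF6 (0.41 ± 0.10, adjusted p = 0.00963) and STF9 (0.56 ± 0.10, adjusted p = 0.0012) and fell in kcs1-R332T (-0.57 ± 0.05, adjusted p = 3e-06). In kcs1-L338R and kcs1-E834K 0 of these rose and 1 fell in each. Of 6 box H/ACA proteins, 0 to 1 rose and 0 to 1 fell in any comparison. Of 16 Sm, Lsm and cap-hypermethylase genes, 1 rose and 0 fell in STF6, 1 and 4 in STF9, 5 and 2 with R332T, 2 and 1 with L338R and 4 and 1 with E834K. Of 8 RNase P and MRP protein genes, 1 changed in each comparison, pop7 falling in STF6 (-0.63 ± 0.19, adjusted p = 0.021) and STF9 (-0.80 ± 0.19, adjusted p = 0.00577), the alleles in which mrp1 and rrk1 rose.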

How the data were processed

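Poly(A)-selected RNA from 21 libraries was sequenced. The labels and the study's methods name different library kits. Per the labels and the study's methods, the authors aligned paired reads with HISAT2 2.1.0 to build ASM294v2 and counted reads in exons with HTSeq 0.10.0, and the deposited values are raw counts per locus, 1 table per experiment. The strand setting of the counting is not given in the sources used here. Of 6 members wholly inside an antisense exon of a counted locus, 5 held counts in the asp1 experiment (80 to 1913 over its libraries). The 8 members inside a same-strand exon had no count in either experiment. The counting thus kept the strands apart at those 5 members. Whether it did so at every antisense pair was not tested. Deposited tables of the authors' own DESeq2 comparisons were not used, and 0 columns of the count tables were left out.

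The members, gene lists and tests were chosen with earlier results of these data known. Groups came from the sample labels. Each experiment was fitted with edgeR 4.0.16 in R 4.3.3 (TMM, filterByExpr by group, quasi-likelihood test, all groups of the experiment in 1 fit, Benjamini-Hochberg over all tested loci, adjusted p at most 0.05). The filter kept loci above 0.378 CPM (asp1 experiment, 6144 loci) or 0.415 CPM (kcs1 experiment, 6093 loci) in at least 3 libraries. Standard errors are the log2 fold change over the root of the quasi-likelihood F. Normalised counts are counts per effective library size times the geometric mean of those sizes in the experiment. The p-values rest on the spread between the 3 cultures within each group, estimated over all groups of an experiment and moderated across loci. In asp1-WT that spread includes cultures with different strain numbers. Elsewhere it does not cover differences between strains of the same allele. Named with values were the snRNAs, U3, mrp1 and rrk1, the 5 members with the largest rise and the 5 with the largest fall among those called against each wild type, the 5 with the highest RPKM per experiment, up to 5 called alike in both STF or all kcs1 alleles, their overlapping or host genes, and up to 3 called genes per pathway list. Other members were named after their values were seen.

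Same-numbered cultures deviated together across loci for STF6 and asp1-WT (correlations 0.528, 0.249 and 0.512) and for kcs1-L338R and kcs1-WT (0.365, 0.152 and 0.122), and not for the remaining pairs of mutant and wild type, where at least 1 of 3 correlations was below 0.1. The pairing comes from these correlations, since the labels name no shared day or batch. Alternatives were DESeq2 1.42.0 size factors and Wald test, no filter on low counts, a replicate block, fits of the mutant and its wild type alone, and leaving out each library. Scripts were tested on simulated data. Locus names, lengths and sequences came from RefSeq build ASM294v3 by identifier, which 6836 of 6988 loci and 62 of 62 members matched.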

Additional observations from a re-analysis of the deposited data

Results flagged for a closer look

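The effect of kcs1-R332T on some named RNAs differed from that of another kcs1 allele by a test of the difference itself. For kcs1-L338R against kcs1-R332T, the log2 differences (± SE) that passed in edgeR's direct test were rrk1 0.73 ± 0.23 (adjusted p = 0.0265), mrp1 1.27 ± 0.16 (adjusted p = 5.6e-05), snR30 0.50 ± 0.10 (adjusted p = 0.00286), snoU14 0.61 ± 0.11 (adjusted p = 0.0012), snR33 -1.31 ± 0.24 (adjusted p = 0.00128), snR36 -1.39 ± 0.29 (adjusted p = 0.00322), snR94 -1.002 ± 0.27 (adjusted p = 0.0128) and snR98 -0.97 ± 0.32 (adjusted p = 0.0312). For kcs1-E834K against kcs1-R332T, the log2 differences (± SE) that passed in edgeR's direct test were rrk1 0.92 ± 0.23 (adjusted p = 0.0163), mrp1 1.18 ± 0.16 (adjusted p = 0.00018), snR30 0.61 ± 0.10 (adjusted p = 0.0012), snoU14 0.93 ± 0.11 (adjusted p = 6.7e-05), snR42 -0.84 ± 0.25 (adjusted p = 0.0396), snR95 0.50 ± 0.15 (adjusted p = 0.0425), snR98 -1.35 ± 0.33 (adjusted p = 0.0157), snr79 0.99 ± 0.30 (adjusted p = 0.0407) and snu4 2.12 ± 0.66 (adjusted p = 0.0465). A positive value is higher than in kcs1-R332T. Of these RNAs, snR98, snr79 and snu4 are among the 13 below the minimum in some group. In kcs1-L338R 12.1% of tested members were higher and 12.1% lower, where 19% and 17.6% of all tested loci were. For kcs1-E834K the shares were 21.2% and 6.06% of members, against 9.88% and 4.05% of all loci. When 1 library of either allele was left out, 3 to 4 members were higher and 0 to 1 lower in kcs1-E834K. All 3 alleles share the kcs1-WT libraries and were grown in the same medium. No explanation was tested.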

How the results depend on the processing

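With DESeq2's size factors in place of TMM, 23 members rose in STF6 and 21 in STF9, and the median of all tested loci stayed within 0.1 of 0 on the log2 scale. Of 64 comparisons of named members that passed, 42 passed in every fit that left out 1 library. Counts of members that fell rested on 0 to 4 RNAs and moved most. By DESeq2, 0 fell in kcs1-L338R, 0 in kcs1-E834K and 1 in kcs1-E834K against kcs1-R332T, and 0 fell in kcs1-L338R when only that allele and kcs1-WT were fitted. Leaving out 1 library at a time gave 18 to 25 higher and 0 to 1 lower in STF6, 15 to 20 and 0 to 2 in STF9, 0 to 1 and 0 to 6 in STF9 against STF6, 6 to 8 and 0 to 2 in kcs1-R332T, 5 to 10 and 0 to 1 in kcs1-L338R, 8 to 12 and 0 to 1 in kcs1-E834K, 3 to 6 and 2 to 4 in kcs1-L338R against kcs1-R332T, 3 to 4 and 0 to 1 in kcs1-E834K against kcs1-R332T, and 0 and 0 in kcs1-E834K against kcs1-L338R. Shares of all loci are not given for any of these alternative fits, with or without a library left out. These counts therefore cannot be set against them. The causes of these shifts were not tested. RNAs such as snu1, snu5 and snR96 rest on few counts, which limits their precision.

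With the replicate number as a block in the fit of all groups, 2 members fell in STF9 and 1 fell in STF9 against STF6. The share of all loci called in that fit is not given, so these counts cannot be set against it. In the blocked fit of STF6 and asp1-WT alone, chosen after seeing the data, 32 members rose and 4 fell, where 23.6% of all loci were higher and 24.5% lower. The blocked fit of kcs1-L338R and kcs1-WT alone changed no call among the named members.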

Other observations

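Noncoding RNAs outside the set gave a mixed picture. The telomerase RNA ter1 changed by 0.49 ± 0.12 (SE, adjusted p = 0.00913) on the log2 scale in STF6, 0.34 ± 0.12 (SE, adjusted p = 0.0466) in STF9 and 0.31 ± 0.10 (SE, adjusted p = 0.0325) in kcs1-E834K (edgeR). The signal recognition particle RNA srp7 did not pass in any comparison with a wild type (2.06 ± 0.79, adjusted p = 0.0592 in STF9, where replicate 2 held 402 counts). Of 6 snoRNA loci annotated under other identifiers, snR48 rose in STF6 (1.38 ± 0.44, adjusted p = 0.0336) and the others, snoR61, SPNCRNA.498, snR191, SPNCRNA.1483 and SPNCRNA.1650, changed by -0.28 to 0.44 in STF6 without passing. In STF9 0 of the 6 passed. Of all other annotated noncoding loci tested, 27.3% were higher in STF6 and 19.7% in STF9, between the shares for all loci and for the snoRNA, snRNA and RNase RNAs. Of the same noncoding loci, 17.6% were higher with the R332T allele of kcs1, 10.4% with L338R and 20.7% with E834K.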
